A study of Mus musculus with 24 samples.

Results

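The corticotropin-releasing hormone (CRH) and urocortin system was examined in RNA-Seq libraries of mouse nucleus accumbens (NAc). Its members were taken by gene symbol and comprise the ligand genes *Crh*, *Ucn* and *Ucn3*, the binding protein gene *Crhbp* and the receptor genes *Crhr1* and *Crhr2*, 6 of the 38293 genes in the count table. Tissue came from C57BL/6J mice, aged 8 weeks by the methods and 9 weeks by the sample labels, in 4 groups: unstressed males (NSM), stressed males (SM), unstressed females (NSF) and stressed females (SF). Stressed mice went through Subchronic Variable Stress (SCVS), in which foot shock, tail suspension or restraint was given for 1 h a day over 6 days, and tissue was taken 24 h after the last session, while unstressed controls stayed in the home cage. All females were in estrus or proestrus. Each group had 3 libraries, and each library was a pool of 10 ventral striatum punches from 5 mice, so that the spread between libraries is a spread between pools and single mice are not seen.

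CRH is a neuropeptide cut from a larger precursor. It is best known for starting the hormonal stress response from the hypothalamus, and it is also made by neurons of the cortex, amygdala and striatum, where it acts locally. CRH and urocortin bind CRHR1, the urocortins bind CRHR2, and both are class B1 G protein-coupled receptors that raise cyclic AMP through adenylyl cyclase. The secreted binding protein CRHBP holds CRH and urocortin away from the receptors. In the NAc, CRH is known to influence dopamine release, and this action is known to be altered by severe stress.

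The counts on genes summed to 41076780 in the smallest and 60867747 in the largest library. Levels are given as CPM, the read counts normalized to library size, scaled by TMM factors between 0.967 and 1.04. Markers of striatal projection neurons, the principal cells of the labelled tissue, summed to 4450 to 5640 CPM in each library. Markers of hypothalamic peptide neurons summed to only 5.18 to 7.36 CPM. Markers of cortical glutamatergic neurons, a list of 10 genes, differed between libraries far more, from 45.7 to 59.4 CPM in NSM, from 95.3 to 285 CPM in SM and from 99.4 to 187 CPM in SF. The 3 NSF libraries did not resemble each other in these markers: NSF1 had 354 CPM and NSF3 had 500 CPM, whereas NSF2 had 65.2 CPM. None of the 10 was without reads over the 12 libraries. One library, NSM1, had 114 CPM of choroid plexus markers, compared with 36 to 47.1 CPM in the other 11 libraries. In such tissue pools, fewer cells of a type and less RNA per cell cannot be told apart.

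Of the 6 members, 5 had more than 5 reads in all 12 libraries and were tested among 18593 genes. The exception was *Ucn*. A gene was called regulated at an unadjusted limma p under 0.05 with a fold change of at least 1.3 in either direction, and calls at a Benjamini-Hochberg adjusted p under 0.05 over all tested genes are given separately. At the first rule, 1 of the 5 tested members was called in males (*Crh*), compared with 6.44% of all tested genes. None was called in females (all genes, 1.73%). The difference between the female and the male stress effect was called for 1 member, again *Crh* (all genes, 4.42%). Between the sexes, no member was called in unstressed mice (all genes, 5.31%) and 1, *Crhr2*, in stressed mice (all genes, 5.55%). With 5 members, 1 call in a comparison is not set apart from these backgrounds. At the adjusted threshold no member was called in any comparison, where all genes gave 3.32% in males, 0% in females, 0.0269% for the difference between the effects, 0.285% between unstressed and 0.145% between stressed sexes. The comparisons share groups and are therefore not independent of each other.

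**Figure D1:**
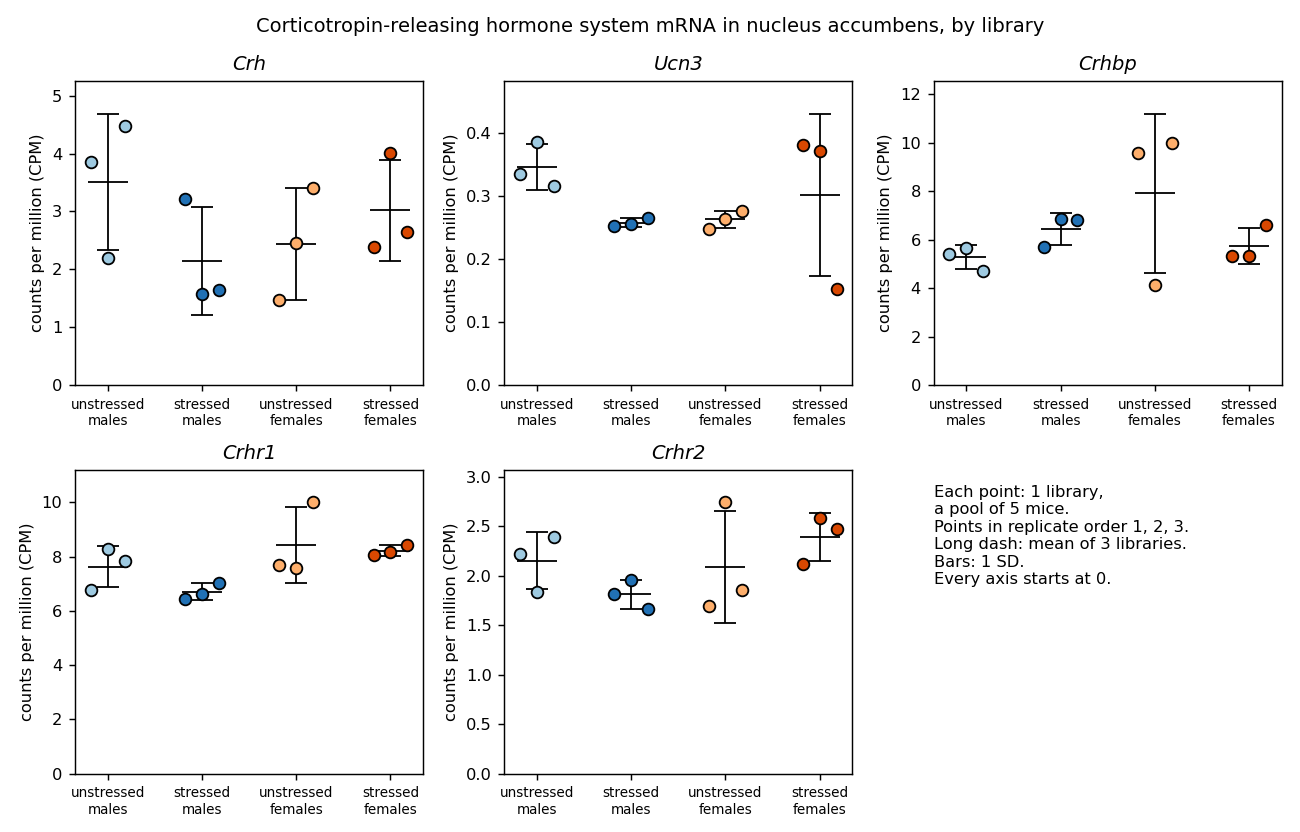
Level of each tested member in CPM (vertical axes, each from 0) in the 12 libraries by group, with points for single libraries in the order of their replicate numbers, the mean of 3 libraries as a long dash and 1 SD as bars. *Crh* spread between 1.47 and 4.48 CPM with overlapping groups, and *Crhbp* had 2 NSF libraries near 10 CPM.

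Compared per length, as CPM per kilobase of annotated exon, the members fell into an upper and a lower tier. *Crhbp* (3.76 ± 1.07 CPM per kb; SD, n = 12 libraries), *Crhr1* (3.15 ± 0.402) and *Crh* (2.1 ± 0.765) made up the upper tier. These neighbors were not separated by their spread: *Crhbp* exceeded *Crhr1* in 8 of 12 libraries, and *Crhr1* exceeded *Crh* in 10 of 12. *Crhr2* followed with 0.412 ± 0.0716 CPM per kb, and its highest library (0.535) lay below the lowest library of *Crh* (1.11). This gap rests on the length used, which joins the exons of all annotated transcripts. It was 5115 bases from 8 transcripts for *Crhr2* and 1320 bases from 1 for *Crh*. In CPM, *Crhr2* (1.66 to 2.74) overlapped *Crh* (1.47 to 4.48). *Ucn3* had 0.198 ± 0.0463 CPM per kb, and its highest library (0.261) lay below the lowest of *Crhr2* (0.325). *Ucn* came last, at 0.0106 CPM per kb. Between the receptors, *Crhr1* was 5.74 to 11.3 times as high as *Crhr2* per length, and the group means of this ratio lay between 7.19 and 8.83. The ratio, too, depends on the length (2462 bases for *Crhr1*), and the mean levels in CPM, 7.75 and 2.11, lay closer together.

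*Crh* (ENSMUSG00000049796) lies on chromosome 3 of the mouse build NCBIM37, from 19593401 to 19595396 on the minus strand, and encodes the CRH precursor. In unstressed males it had 3.85 CPM in NSM1, 2.19 in NSM2 and 4.48 in NSM3, and in stressed males 3.22 CPM in SM1, 1.57 in SM2 and 1.64 in SM3. The male groups overlap, because SM1 lies above NSM2. By limma, *Crh* fell by 0.76 on the log2 scale in stressed males (standard error, SE, 0.35; 95% interval -1.51 to -0.01, adjusted p = 0.225), from 3.51 ± 1.18 to 2.14 ± 0.933 CPM (SD, 3 libraries each). The study also lists *Crh* among its male genes, from these same libraries, which is not independent evidence of the direction. It also measured *Crh* by qPCR in individual mice of a separate cohort and reports a difference at p under 0.05 by an unpaired t test. Its text gives no direction for that difference, and those measurements were not analysed here.

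In females the order of the group means was the other way round. Unstressed females had 1.47 CPM in NSF1, 2.46 in NSF2 and 3.4 in NSF3, and stressed females had 2.39 CPM in SF1, 4.01 in SF2 and 2.64 in SF3. The groups overlap widely, and the log2 fold change was 0.34 (SE 0.34, 95% interval -0.38 to 1.07, adjusted p = 0.948, limma). This estimate, too, rested on single libraries: it was 0.06 without NSF1, 0.11 without SF2 and 0.59 without NSF3, and it was called in none of these fits. The female minus male difference of the stress effect was 1.10 on the log2 scale (SE 0.49, 95% interval 0.06 to 2.15, adjusted p = 0.498, limma). This difference was no longer called with DESeq2 (1.01), with library quality weights (0.74), with the cortical covariate (1.04) or in 7 of 12 fits with one library removed. Without stress, the log2 difference of females from males was -0.53 (SE 0.33, adjusted p = 0.454), and after SCVS it was 0.57 (SE 0.36, adjusted p = 0.459); in neither case were the sexes separated.

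The spread of *Crh* between pools of one group was large. Its SD within groups was 0.536 on the log2 scale, and of 1282 tested genes with similar numbers of reads, 98% had a lower one. *Crh* had 65 to 227 reads per library. Call and size depended on single libraries: in males the log2 fold change was -0.56 without NSM3, -0.57 without SM2, -0.62 without SM3 and -0.65 without NSM1, none of them called, and -1.04 without NSM2 and -1.07 without SM1, both called. Removing NSF2 or SF3 left it at -0.76 but ended the call, as did edgeR (-0.73) and DESeq2 (-0.70). With library quality weights it was -0.32, and with the cortical marker level as a covariate it was -0.70 (SE 0.48, adjusted p = 0.47), no longer called. The cortical level does not overlap between the male groups, so its part cannot be told apart from that of stress.

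**Figure D2:**
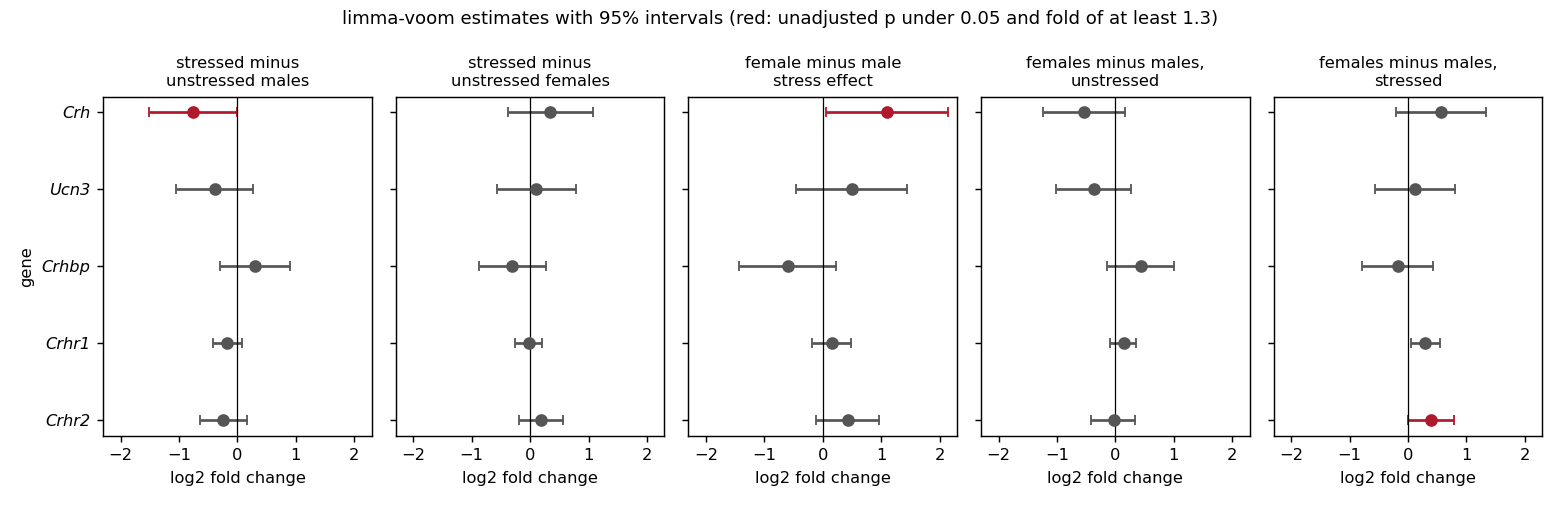
Log2 fold changes (horizontal axes) of the 5 tested members with 95% intervals from limma in the 5 comparisons, in red where the unadjusted p was under 0.05 and the fold change at least 1.3. The interval of *Crh* in males reaches to -0.01 and that of *Crhr2* between the stressed sexes to 0, and the other red interval is that of *Crh* for the difference between the stress effects.

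Urocortin mRNA was scarce. *Ucn* (ENSMUSG00000038676; chromosome 5, 31440436 to 31441202, minus strand) had 3 reads in all, 2 in NSF3 and 1 in SF3, and none in the male libraries. At this depth 3 reads, taken as the floor, correspond to between 0.0495 and 0.0755 CPM, and no library of *Ucn* exceeded it, so that no fold change was computed and lower levels were not detectable. The floor covers counting error only. *Ucn2*, the remaining urocortin gene, is not one of the 6 members and had 37 reads in all 12 libraries together, with 0 to 9 in a library. It was not tested either, and the SF libraries had 1, 0 and 0 of these reads.

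*Ucn3* (ENSMUSG00000044988; chromosome 13, 3939934 to 3944595, minus strand) encodes a urocortin that is selective for CRHR2. It had 7 to 19 reads per library. Unstressed males had 0.335, 0.386 and 0.316 CPM in replicates 1, 2 and 3, and stressed males had 0.252, 0.255 and 0.266 CPM. All 3 SM libraries lay below all 3 NSM libraries, yet the log2 fold change of -0.39 had a SE of 0.31 (95% interval -1.06 to 0.27, adjusted p = 0.482, limma). Among all tested genes, 11.7% had every SM library below every NSM library, and 11.3% had every one above. In unstressed females *Ucn3* had 0.248, 0.264 and 0.276 CPM, again all below the unstressed males (log2 difference -0.37, SE 0.30, adjusted p = 0.587, limma; 8.45% of all genes lay apart in this direction and 11% in the other). Stressed females had 0.381 and 0.372 CPM in SF1 and SF2 but 0.153 CPM in SF3, the highest spread of the 4 groups. The female log2 fold change was 0.10 (SE 0.31, adjusted p = 0.979, limma), and it changed sign to -0.10 without SF1, to -0.09 without SF2 and to -0.01 with library quality weights.

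*Crhbp* (ENSMUSG00000021680; chromosome 13, 96201326 to 96214786, minus strand) encodes the secreted protein that binds CRH. Stressed males had 5.69, 6.85 and 6.8 CPM in SM1, SM2 and SM3, and unstressed males had 5.42, 5.67 and 4.71 CPM in NSM1, NSM2 and NSM3. Every SM library was above every NSM library, although NSM2 and SM1 nearly touched, and the log2 fold change was 0.30 (SE 0.28, 95% interval -0.30 to 0.90, adjusted p = 0.567, limma). This SE uses a spread shared by all 4 groups. With only the male libraries in the fit, the value was again 0.30, with a SE of 0.11 (adjusted p = 0.191, limma). Without NSF2 the SE was 0.11 as well (adjusted p = 0.15), and in neither fit was *Crhbp* called. Unstressed females had 9.58 CPM in NSF1 and 10 CPM in NSF3, the highest levels of all libraries, and 4.12 CPM in NSF2, the lowest. Stressed females had 5.34, 5.32 and 6.6 CPM, between these extremes. The female log2 fold change was -0.31 (SE 0.27, 95% interval -0.88 to 0.27, adjusted p = 0.948, limma).

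The values of *Crhbp* in females turned on single NSF libraries, most of all on NSF2. The log2 fold change in females was -0.11 without NSF1 and -0.07 without NSF3. Without NSF2, *Crhbp* was lower in stressed than in unstressed females by a log2 fold change of -0.78 (SE 0.11, adjusted p = 0.012, limma), the female minus male stress effect was -1.08 (SE 0.16, adjusted p = 0.00789) and the difference of unstressed females from unstressed males was 0.90 (SE 0.11, adjusted p = 0.00193). With all libraries these 3 values were -0.31, -0.60 and 0.43, with none called. Removing NSF2 also moved the counts over all genes: those with an adjusted p under 0.05 went from 0 to 61 in females, from 5 to 218 for the difference of the effects and from 53 to 473 between unstressed sexes. Between stressed sexes *Crhbp* differed by -0.18 (SE 0.28, adjusted p = 0.802). NSF2 is also the NSF library with the low cortical marker sum.

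*Crhbp* moved with the cortical markers across libraries. The Pearson r of its log2 CPM with the log2 of the cortical marker sum was 0.882 over 12 libraries (permutation p = 8e-05, adjusted p = 0.0016 over 20 relations), and Spearman's rho was 0.755 (permutation p = 0.00628, adjusted p = 0.0628). Without NSF1 and NSF3, the 2 libraries farthest from the median, r was 0.758, and with the group means removed it was 0.918. With the cortical marker level as a covariate, the log2 fold change of *Crhbp* in males turned to -0.45 (SE 0.20, adjusted p = 0.269, limma), that in females came to -0.09 (SE 0.15), and the female minus male effect turned to 0.36 (SE 0.28). This level, a mean log2 CPM, was -0.82 to 0.24 in NSM and 1 to 2.9 in SM. Without overlap, its part in the male values cannot be told apart from that of stress. The within-group SD of *Crhbp* was 0.386 on the log2 scale, above that of 97.8% of 1577 genes with similar numbers of reads. For *Crh* the same relation had an r of -0.455 (permutation p = 0.138) and a rho of -0.371 (permutation p = 0.238), with adjusted p values of 0.459 and 0.411. Its r was -0.598 without NSF1 and NSF3 and -0.19 with the group means removed.

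**Figure D3:**
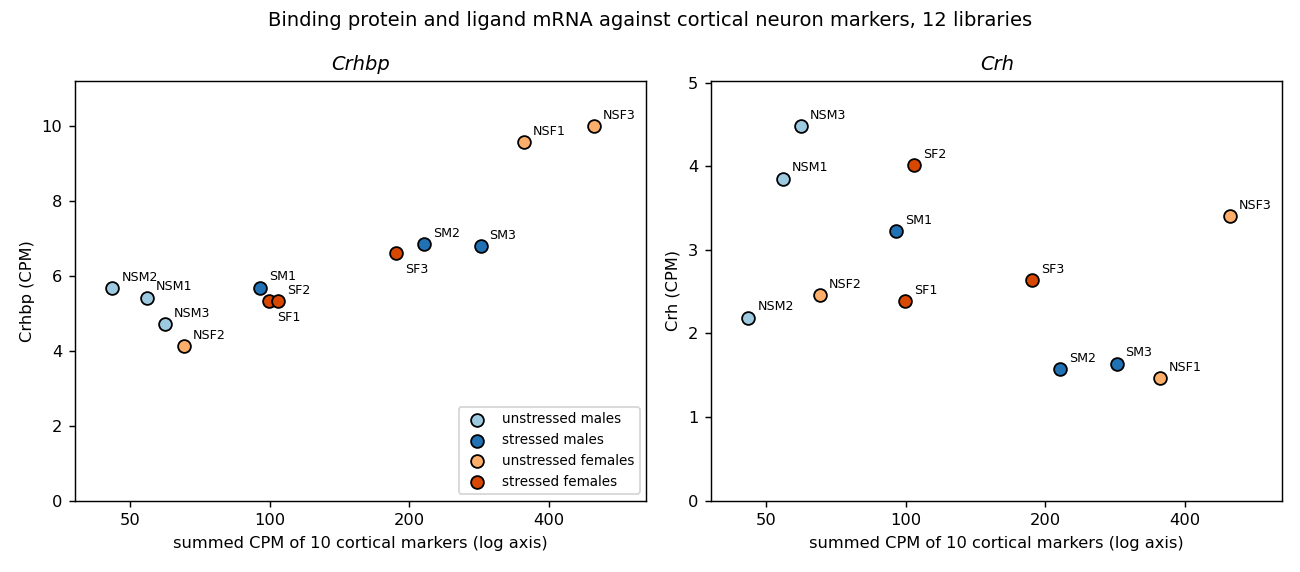
Level of *Crhbp* and of *Crh* in CPM (vertical axes) against the summed CPM of 10 cortical glutamatergic neuron markers (horizontal log axis), 1 point per library, colored by group. *Crhbp* was highest in NSF1 and NSF3, the libraries with 354 and 500 CPM of cortical markers, and lowest in NSF2 with 65.2 CPM, while *Crh* shows no such order.

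**Figure D4:**
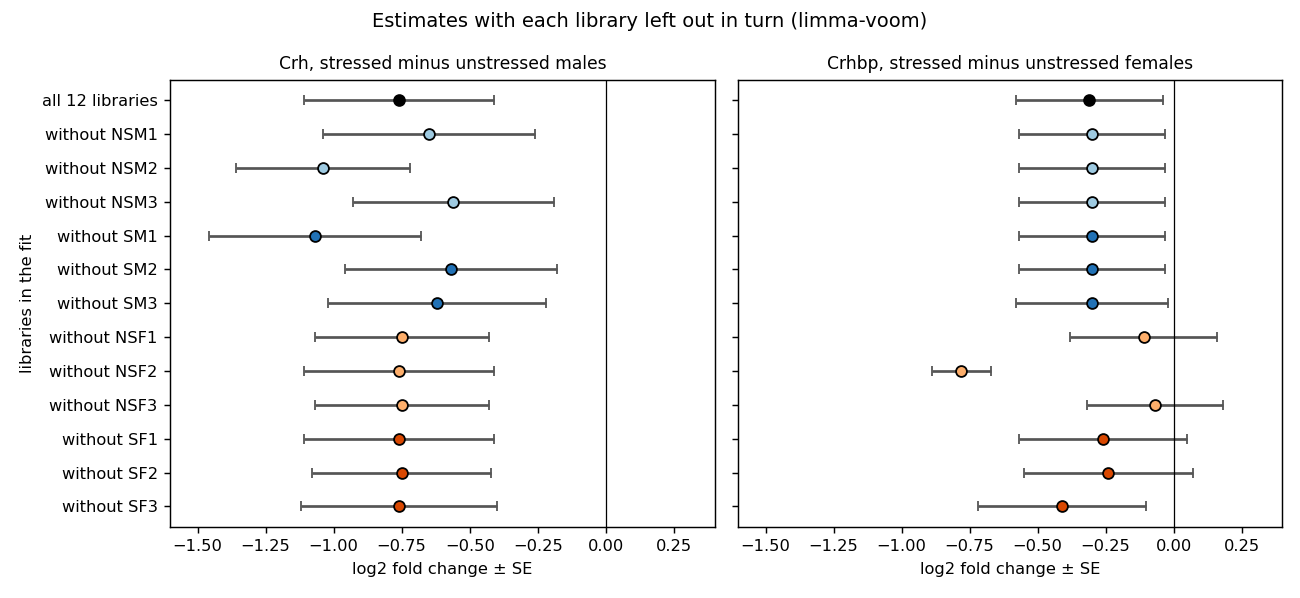
Log2 fold changes with standard errors (horizontal axes) of *Crh* in males and of *Crhbp* in females, in the fit to all 12 libraries and in the 12 fits that each left out one. The *Crh* estimates ran from -1.07 to -0.56, and the *Crhbp* estimates from -0.78 without NSF2 to -0.07 without NSF3.

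The level of ligand mRNA relative to binding protein mRNA was read as the ratio of *Crh* to *Crhbp* per length. It was 0.907, 0.494 and 1.21 in NSM1, NSM2 and NSM3, and 0.723, 0.294 and 0.308 in SM1, SM2 and SM3. In females it was 0.195, 0.761 and 0.432 without stress and 0.573, 0.963 and 0.512 after SCVS. The male groups overlap in NSM2 and SM1, and the female groups overlap as well, so the ratio separates neither pair. One library of the 12, NSM3, had more *Crh* than *Crhbp* per length.

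*Crhr1* (ENSMUSG00000018634; chromosome 11, 103994169 to 104036837, plus strand) encodes the receptor with high affinity for CRH. It was the steadiest member, with a within-group SD of 0.142 on the log2 scale and 256 to 473 reads per library. Unstressed males had 6.78, 8.27 and 7.83 CPM and stressed males 6.44, 6.61 and 7.04 CPM, groups that overlap at NSM1. The log2 fold change in males was -0.18 (SE 0.11, 95% interval -0.42 to 0.07, adjusted p = 0.39, limma). In females it was -0.02 (95% interval -0.25 to 0.21, adjusted p = 0.989), from 7.69, 7.57 and 10 CPM without stress to 8.05, 8.18 and 8.43 CPM after SCVS. Among stressed mice, all 3 female libraries had more *Crhr1* than all 3 male libraries, and the log2 difference was 0.29 (SE 0.11, 95% interval 0.05 to 0.54, adjusted p = 0.217, limma), a fold change of 1.23 that is under the fold threshold. It stayed between 0.26 and 0.32 when any 1 library was left out.

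*Crhr2* (ENSMUSG00000003476; chromosome 6, 55040043 to 55083010, minus strand) encodes the receptor for the urocortins. Stressed females had 2.12, 2.58 and 2.47 CPM and stressed males 1.81, 1.96 and 1.66 CPM, and the groups do not overlap. The log2 difference was 0.40 (SE 0.18, 95% interval 0 to 0.79, adjusted p = 0.3, limma), a fold change of 1.32. Of all tested genes, 12.8% had every SF library above every SM library and 7.65% every one below, so that 2 of 5 members with this pattern is a count over few genes. The call of *Crhr2* was lost in 9 of 12 fits with one library removed, with log2 differences from 0.33 to 0.48, and was kept without NSF1, NSF2 or SF1. It was also lost with DESeq2 (0.39), with DESeq2's size factors or filterByExpr (0.38 each) and with the cortical marker level as a covariate (0.33).

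Within each sex, *Crhr2* was not called. Unstressed males had 2.22, 1.83 and 2.39 CPM, overlapping the stressed males, with a log2 fold change of -0.24 (SE 0.18, adjusted p = 0.473, limma) that became 0.03 with the cortical covariate. Unstressed females had 1.69 CPM in NSF1, 2.74 in NSF2 and 1.85 in NSF3, so that NSF2, the library lowest in *Crhbp*, was the highest of all in *Crhr2*. The log2 fold change in females was 0.19 (SE 0.17, adjusted p = 0.948, limma). No member had separated groups in the female comparison, where 4.9% of all genes had every SF library above and 6.41% every one below the NSF libraries. For the female minus male effect, *Crhr2* had 0.43 (SE 0.25, adjusted p = 0.643), *Crhr1* 0.16 (SE 0.16, adjusted p = 0.811) and *Ucn3* 0.50 (SE 0.44, adjusted p = 0.783). With the cortical covariate the value of *Crhr2* came to 0.05 and that of *Ucn3* to 0.20, and without NSF2 *Crhr2* had 0.67. In unstressed mice the female minus male difference was -0.03 for *Crhr2* (SE 0.17, adjusted p = 0.956) and 0.14 for *Crhr1* (SE 0.11, adjusted p = 0.578), so that neither receptor was called there.

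Among each other, the 5 tested members gave 10 pairwise relations over the 12 libraries. The strongest was that of *Crhbp* and *Crhr2*, with an r of -0.675 (permutation p = 0.0151, adjusted p = 0.151 over 20 relations) and a rho of -0.699 (permutation p = 0.0153, adjusted p = 0.0906). It was -0.626 without NSF1 and NSF3 and -0.777 with the group means removed. *Crh* and *Crhr2* had an r of 0.551 and a rho of 0.566 (permutation p = 0.0659 and 0.0597, adjusted p = 0.421 and 0.239). With the choroid plexus marker sum, *Crhr2* had an r of 0.321 (permutation p = 0.361, adjusted p = 0.497) and a rho of 0.685 (permutation p = 0.0181, adjusted p = 0.0906). Its r was 0.769 without NSM1 and NSF3. Much of the choroid plexus sum was *Clic6* (group means 25.5 to 30 CPM) and *Kl* (9.27 to 11.5 CPM). *Ttr* had a mean of 23.1 CPM in NSM but only 0.741 to 1.25 CPM in the other groups. Within NSM the sum was 114 CPM in NSM1 but 42.9 CPM in NSM2 and 42.8 CPM in NSM3. The *Ttr* mean of NSM therefore need not hold for each of its libraries. With the same sum, *Crhbp* had an r of -0.355 (permutation p = 0.264, adjusted p = 0.482) and a rho of -0.755 (permutation p = 0.00611, adjusted p = 0.0628), and its r was -0.658 without NSM1 and NSF3. *Crh* and *Crhbp*, ligand and binding protein, had an r of -0.406 (permutation p = 0.193, adjusted p = 0.482) and a rho of -0.503 (permutation p = 0.101, adjusted p = 0.287), and r was -0.0687 without NSM3 and NSF1.

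The genes whose log2 CPM over the 12 libraries was most like that of each member were sought among 17573 tested genes with a mean of at least 10 reads, as a description. For *Crh* they were *Ankrd55*, *Gstm6*, *Tmem215*, *Igsf1* and *Epha3*, with Pearson r from 0.891 to 0.926. For *Ucn3* they were *Myh4*, *Synj2bp*, *Gm13068*, *4922505G16Rik* and *Rbm20* (0.87 to 0.908), of which the first had a mean of only 12.9 reads. For *Crhbp* they were *Oxr1*, *Serpini1*, *Stmn1*, *Prss23* and *B3galt2* (0.943 to 0.971). For *Crhr1* they were *Jun*, *Atoh8*, *Gpr3*, *Sbk1* and *Pcyox1l* (0.917 to 0.946), and for *Crhr2* *Ccdc153*, *Wdr96*, *1700012B09Rik*, *Ccdc89* and *Scn7a* (0.886 to 0.925). All these values share the same libraries, their depth and their tissue composition.

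The genes around the system were described by lists. Of 5 genes for the processing of peptide precursors such as that of CRH, all were tested. They encode 4 enzymes and, with *Scg5*, a chaperone of the convertase PCSK2. *Pcsk1*, a prohormone convertase, fell by 0.58 on the log2 scale in stressed males (SE 0.13, adjusted p = 0.0312, limma), from 16.2 to 10.8 CPM. *Pcsk2*, the companion convertase, had a mean of 361 CPM in SM against 296 CPM in NSM, a rise of 0.29 on the log2 scale (SE 0.07, adjusted p = 0.043) that is under the fold threshold. Calls at the adjusted threshold in males varied widely between fits. Over all genes they numbered 618 in the reported fit and 1 with the cortical marker level as a covariate. With one library left out they ran from 79 without SM2 to 972 without SM3. At most 1 of *Pcsk1* and *Pcsk2* can have stayed among them with the cortical covariate. Which of them stayed, in this or any other fit, was not examined. In females *Pcsk1* had 15.1 CPM without and 14.6 CPM with stress (log2 fold change -0.01, adjusted p = 0.996), and *Pcsk2* had 335 and 331 CPM (-0.02, adjusted p = 0.982). The female minus male difference was 0.57 for *Pcsk1* (SE 0.18, adjusted p = 0.318) and -0.31 for *Pcsk2* (SE 0.10, adjusted p = 0.346). The median log2 fold change of the list was 0.11 in males and 0.02 in females.

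Downstream of the receptors, 13 of 13 genes for G proteins and adenylyl cyclases were tested. *Adcy1*, a calcium-stimulated adenylyl cyclase, rose by 0.46 on the log2 scale in stressed males, from 205 to 282 CPM (SE 0.10, adjusted p = 0.0245, limma). The level was 296 CPM in unstressed and 260 CPM in stressed females (log2 fold change -0.18, SE 0.10, adjusted p = 0.948), and unstressed females exceeded unstressed males by 0.51 (SE 0.10, adjusted p = 0.0456). The group medians of the cortical marker sum had the same order. With the cortical covariate, 1 gene over all tested genes had an adjusted p under 0.05 in males. At most 1 of *Adcy1*, *Pcsk1* and *Pcsk2* can therefore have kept such a value. The fits with the cortical covariate or with one library left out were not examined for *Adcy1* itself. The part of the cortical marker level in its values was therefore not tested. None of the other 12 genes was called in either stress comparison, and the list's median log2 fold change was 0 in males and 0.01 in females, compared with -0.012 and -0.004 over all tested genes.

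None of 15 genes for protein kinase A subunits and CREB family factors was called in any comparison, with medians of -0.07 in males and 0.04 in females. Of 9 genes for receptor desensitization, 1 was called higher in males and none in females, and none had an adjusted p under 0.05. Of 13 other class B1 receptor genes, 11 were tested, with 2 called lower in males, and 1 called higher and 1 lower in females. Their medians were -0.17 and -0.03, and none had an adjusted p under 0.05 in any comparison. Between stressed sexes 2 of them were called higher in females (all genes, 5.55% in either direction). Between unstressed sexes 2 were called higher and 1 lower (all genes, 5.31%). For the female minus male effect 3 were called higher and 1 lower (all genes, 4.42%). The shares of all tested genes called higher and lower were 2.36% and 4.08% in males, and 0.64% and 1.09% in females.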

How the data were processed

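Polyadenylated RNA from 12 pooled NAc samples, 3 per sex and stress condition, was sequenced with paired reads of 50 bases. The authors aligned the reads with TopHat2 to NCBIM37 (Ensembl version 67) and used HTSeq to assign them to genes; the table they deposited holds raw counts that were not normalized. The strand setting of the counting is not given in the sources used here, but no annotated gene overlaps a member. Symbols, coordinates and exon lengths came from the GENCODE annotation of NCBIM37. Samples were grouped by their labels, and small RNA libraries were not used.

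Genes were tested (18593 of 38293) if 80% or more of a group (with 3 libraries, each one) exceeded 5 reads, with edgeR 4.0.16 TMM factors, voom and limma 3.58.1 in R 4.3.3, with one mean per group over all 12 libraries. CPM are TMM-scaled. The filter, model and thresholds follow the study's methods. The study nevertheless reports more genes tested, and more called in each sex, than were found here. With 3 libraries per group an exact permutation test of 1 gene cannot go below p = 0.1, so p values come from the model across genes, and they measure the spread between pools. A mean under 10 reads was found for 5.48% of tested genes. Replicates differed by more than counting noise, and none were merged. Correlations used 100000 permutations (two-sided; scipy 1.17.1, numpy 2.4.6), and plots matplotlib 3.10.9. The tests were also run on simulated counts with known changes in SM. These counts held no differences in tissue composition between libraries, so they cannot show how the tests behave under such differences.

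The members and all gene lists were chosen with earlier results of these data known. Named by rule were the 6 members, genes of the other lists with an adjusted p under 0.05 in either stress comparison, and the 5 genes most like each member. Some further genes, such as *Scg5*, *Cck* and *Ttr*, were named outside this rule to describe a list. As alternatives, DESeq2 1.42.0, edgeR's quasi-likelihood test, other scalings and filters, the adjusted threshold, only the groups compared, library quality weights, a replicate block, a cortical marker covariate and leaving out each library were tried.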

Additional observations from a re-analysis of the deposited data

Results flagged for a closer look

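One result of the system is listed here because the stress effects in the sexes differed by a test of the difference itself. For *Crh*, the female minus male stress effect was 1.10 on the log2 scale (standard error 0.49, 95% interval 0.06 to 2.15, adjusted p = 0.498, limma), called at the unadjusted threshold only. In males 2 of 3 stressed libraries (SM2 and SM3) lay below all unstressed libraries, and in females 1 of 3 stressed libraries (SF2) lay above all unstressed ones. It kept its direction in all 12 fits that left out one library, from 0.82 without NSF1 to 1.41 without SM1, and was no longer called in 7 of them (without NSM1, NSM3, SM2, SM3, NSF1, NSF2 or SF2). Among the 10 other settings it ran from 0.74 to 1.13 and was no longer called in 3. The adjusted p lay between 0.4 and 0.894 over these 22 fits. With 4.42% of all tested genes called for the same difference, 1 call among 5 members is close to the background.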

How the results depend on the processing

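The number of members called depended on the setting. In males it was 1 in the reported fit and 0 at the adjusted threshold, with edgeR's quasi-likelihood test, with DESeq2 and with library quality weights; with the cortical covariate it was again 1, but the gene was *Crhbp* and not *Crh*. For the female minus male effect it was 1, and 0 at the adjusted threshold, with DESeq2, with quality weights and with the cortical covariate, and 2 with edgeR, which added *Crhbp* (-0.74). Between unstressed sexes it was 0, and 1 with edgeR (*Crhbp*, 0.58). Between stressed sexes it was 1, and 0 at the adjusted threshold, with DESeq2, with DESeq2's size factors, with filterByExpr and with the cortical covariate. Leaving out one library gave 0 to 1 members in males, 0 to 2 in females, 0 to 2 for the difference of the effects, 0 to 1 between unstressed and 0 to 1 between stressed sexes. In females no other setting called a member, and 2 were called without NSF2 (*Crhbp*, -0.78, and *Crhr2*, 0.43), where the calls over all genes rose as well, from 322 of 18593 to 647 of 18653. Single removals also brought calls of *Crh* between unstressed sexes (-0.82 without NSM2, -0.79 without NSF3) and stressed sexes (0.87 without SM1), and of *Ucn3* (0.90 without SF3) and *Crhr2* (0.67 without NSF2) for the difference of the effects.

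Several values changed sign with the cortical covariate: in males *Crhbp* to -0.45 and *Crhr2* to 0.03, in females *Crhr1* to 0.04, for the difference of the effects *Crhbp* to 0.36, between unstressed sexes *Crhbp* to -0.35, *Crhr1* to -0.04 and *Crhr2* to 0.28, and between stressed sexes *Crhbp* to 0.02. Quality weights turned *Ucn3* in females to -0.01. With one library left out, *Crhr1* in females ran from -0.10 to 0.11 (positive without NSF3), *Ucn3* in females from -0.10 to 0.50, *Crhr2* between unstressed sexes from -0.27 to 0.09 (positive without NSM3, NSF1 or NSF3, at 0.04, 0.09 and 0.05) and *Ucn3* between stressed sexes from -0.09 to 0.52 (-0.08 without SF1 and -0.09 without SF2). The causes were not tested. The cortical level of NSM does not overlap that of SM or NSF. Its part in these comparisons cannot be told apart from that of stress or sex. *Crh* kept its sign in every fit of all 5 comparisons.

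Same-numbered libraries come from different mice, so the numbers were not taken as pairs. Their deviations from the group means had correlations of 0.000725 to 0.316 in males and 0.0756 to 0.107 in females. Each library correlated best with its own number in 2 of 6 cases in males and in 6 of 6 in females. It did so in 4 of 6 cases between unstressed and 2 of 6 between stressed sexes. What libraries of the same number share was not tested. With a replicate block, the number of members called was 1 in males, 0 in females and 1 for the difference of the effects, and the log2 fold change of *Crh* in males was -0.79. Over all genes, the block moved those with an adjusted p under 0.05 in males from 618 to 998. *Ucn* and *Ucn2* were too scarce at this depth for a comparison, and *Ucn3*, with 7 to 19 reads, for small differences.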

Other observations

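Genes of the hypothalamic peptide list and of the astrocyte and vascular lists were counted beside the members. Over all tested genes, 2.36% were called higher and 4.08% lower in males, and 0.64% higher and 1.09% lower in females. None of 6 astrocyte markers was called in either stress comparison. Of 8 vascular smooth muscle and endothelial markers, 1 was called higher and 1 lower in males and none in females. Of 8 hypothalamic peptide markers, 4 were tested and none was called in either stress comparison. Of 10 interneuron markers, 3 were called higher (*Pvalb*, *Cck* and *Reln*) and 1 lower (*Calb2*) in males and none in females. This list also holds *Chat*, a marker of cholinergic neurons. *Cck* had means of 2.96 CPM in NSM, 10.9 in SM, 18.7 in NSF and 6.44 in SF, the order of the cortical marker medians. The summed level of the list was 391 to 408 CPM in NSM, 428 to 467 CPM in SM, 452 to 509 CPM in NSF and 440 to 512 CPM in SF. Of 7 tested choroid plexus markers, 2 were called lower in males. Of 10 cortical markers, 3 were called higher in males, with a median log2 fold change of 2.49, and none in females, with a median of -0.64. Of 10 striatal projection neuron markers none was called in either stress comparison. No gene of these lists had an adjusted p under 0.05 in either stress comparison.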
